A study of Mus musculus with 12 samples.

Results

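Tuft cells are rare chemosensory cells of the intestinal epithelium, and their genes were followed here through 12 RNA sequencing libraries from mouse large intestine. The 9 genes were taken by symbol from a table of 28793 genes, and all 9 are listed for every library. They are the transcription factors Pou2f3 and Gfi1b, the signalling genes Trpm5 and Sh2d6, the cytoskeletal genes Dclk1 and Avil, the eicosanoid enzymes Alox5 and Ptgs1, and the cytokine gene Il25. Values are RPKM, in which the reads of a gene are scaled to its length in kilobases and to the size of the library.

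Tuft cells sense lumenal metabolites and parasites through a pathway shared with taste cells, in which a G protein releases calcium and the cation channel TRPM5 opens. POU2F3 is the transcription factor without which they do not form. On activation they release the cytokine IL-25, which acts on type 2 innate lymphoid cells, together with leukotrienes and prostaglandins made from arachidonic acid. Alox5, Ptgs1 and Gfi1b are also used by blood cells, and Dclk1 by neurons, so none of these genes is a marker in every tissue.

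All mice were C57BL/6 at 3 months of age and differed in Tert, the catalytic subunit of telomerase, which extends chromosome ends. GFP-sorted crypt base columnar cells, labelled stem or progenitor cells, came from Tert heterozygous mice (3 libraries, labelled G0) and from generation 3 mice null for Tert (null G3, 3 libraries). Unsorted crypt epithelial cells came from heterozygous mice (2 libraries, also labelled G0), Tert null mice of generation 4 (null G4, 2 libraries) and generation 4 mice labelled as telomerase reactivated and coded G4tam (reactivated, 2 libraries). The labels name neither the reporter that carries GFP, the Tert alleles nor the agent and time of reactivation, and no wild-type group was analysed here. Libraries of a group are called biological replicates with no animal named, so every p-value measures the spread between these libraries only, which may be technical.

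Implied depths, in units of 1e6 reads, were 75.1 to 103.3 in unsorted libraries and, less certainly, 149.8 to 246.8 in sorted ones. The unsorted heterozygous pair had Tert at 0.459 and 0.251 RPKM, the null G4 pair at 0.00778 and 0.0377, and the pair labelled reactivated at 0.0171 and 0.0311, inside the null range. In sorted cells Tert ran from 0.0424 to 0.169 RPKM in heterozygous libraries and was 0, 0.0787 and 0.00131 in those labelled null G3. The library labelled null G3 replicate 2 is thus not below the heterozygous range, and the labels do not say which part of Tert is deleted, so Tert is an incomplete check of them. Sorted null G3 replicate 1 stood apart: its summed markers of small intestinal enterocytes reached 5338 RPKM, where the other 5 sorted libraries had 85.5 to 130.4, and only 5424 genes reached 1 RPKM against 7721 to 9144. The Y-linked genes Ddx3y, Eif2s3y, Kdm5d and Uty summed to 18.3 and 18.9 RPKM in unsorted heterozygous libraries, to 0.0148 and 0.00792 in null G4, and to 0.00647 and 18.2 in reactivated replicates 1 and 2; among sorted libraries only null G3 replicate 2 had them (8.54 RPKM). Stem cell markers (Lgr5, Ascl2, Smoc2, Axin2 and Olfm4) summed to 33.9 to 38.8 RPKM in sorted and 19.1 to 19.2 in unsorted heterozygous libraries. Sex and Tert genotype cannot be told apart between unsorted heterozygous and null G4 libraries.

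RefSeq promoter windows (GRCm38.p6, from 250 bases before to 50 bases after a transcription start) were found for 7 of the 9 genes, 8 windows in all, since Dclk1 has 2. They were searched on both strands for the octamer bound by POU factors, ATGCAAAT, and for the overlapping 7-base forms ATGCAAA and TGCAAAT. The full octamer was in 0 of the 8 windows, against 1.74% of all 32851 mouse windows. TGCAAAT was also in 0 of 8 (4.02% of all windows), and so was AAATCAC, a core bound by GFI factors (3.2%). ATGCAAA was in 1 of 8, that of Avil (4.63%). These counts say only which letters lie in the windows. The windows of 3 genes are shown in the direction of the gene: Avil, for its matches to ATGCAAA, Sh2d6, the only one of the 9 genes that passed a test below, and Trpm5, the channel used as the reference for the ratios further on. Capitals mark ATGCAAA or its reverse complement, and windows without a match have none.

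Avil promoter, chr10:127000459-127000758, plus strand: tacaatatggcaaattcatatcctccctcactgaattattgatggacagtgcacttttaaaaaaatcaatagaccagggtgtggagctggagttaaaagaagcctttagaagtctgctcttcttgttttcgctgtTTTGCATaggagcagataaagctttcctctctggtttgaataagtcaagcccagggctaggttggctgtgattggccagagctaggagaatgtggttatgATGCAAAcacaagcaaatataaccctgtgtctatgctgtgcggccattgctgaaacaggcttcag
Sh2d6 promoter, chr6:72519987-72520286, minus strand: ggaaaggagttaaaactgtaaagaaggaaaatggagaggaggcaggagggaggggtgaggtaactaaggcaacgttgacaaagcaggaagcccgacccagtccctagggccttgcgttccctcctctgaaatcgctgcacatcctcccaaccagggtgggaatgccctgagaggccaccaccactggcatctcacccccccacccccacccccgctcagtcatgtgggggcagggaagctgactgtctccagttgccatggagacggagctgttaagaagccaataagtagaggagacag
Trpm5 promoter, chr7:143094593-143094892, minus strand: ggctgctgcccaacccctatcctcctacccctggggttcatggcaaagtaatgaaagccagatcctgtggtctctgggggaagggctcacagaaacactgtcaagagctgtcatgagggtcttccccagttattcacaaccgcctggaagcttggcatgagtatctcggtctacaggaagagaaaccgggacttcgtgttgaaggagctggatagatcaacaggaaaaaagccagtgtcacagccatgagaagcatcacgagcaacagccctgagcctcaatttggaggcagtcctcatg

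In Avil the match on the reverse strand starts 115 bases before the transcription start and the match on the gene strand 15 bases before it. The Sh2d6 window belongs to a start that lies inside the gene as GENCODE release M21 draws it (chromosome 6, 72513641 to 72521707).

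In unsorted crypts 8 of the 9 genes lay lower in both null G4 libraries than in both heterozygous ones, against 11.9% of all genes with a value, and Il25 was the exception. Of the 5 genes abundant enough to test (RPKM of 1 or more in at least 2 of the 6 unsorted libraries), 1, Sh2d6, fell at an adjusted p under 0.05, against 0.576% of all genes tested. The test was limma on log2(RPKM + 1), with Benjamini-Hochberg adjustment over 11464 genes and 2 libraries per group. Of these genes 5071 had an unadjusted limma p under 0.05, in either direction. The median log2 difference was -0.55 for the 5 genes and 0.36 for all genes tested. Alox5, 1 of the 5, reached the level for testing in its heterozygous libraries only. Markers of small intestinal enterocytes also had lower values in null G4 libraries: all 6 tested had log2 differences below 0 (median -1.54), and Rbp2, a retinol-binding protein gene, was called lower (-1.85, limma adjusted p = 0.0442, n = 2 per group). The 7 of that list summed to 94.1 RPKM in heterozygous replicate 1 and 276 in replicate 2, and to 74.0 and 80.7 in the null G4 pair. The part of these cells in the tuft cell gene values was not tested. In these mixed cells, fewer tuft cells and less RNA per tuft cell cannot be told apart.

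**Figure D1:**
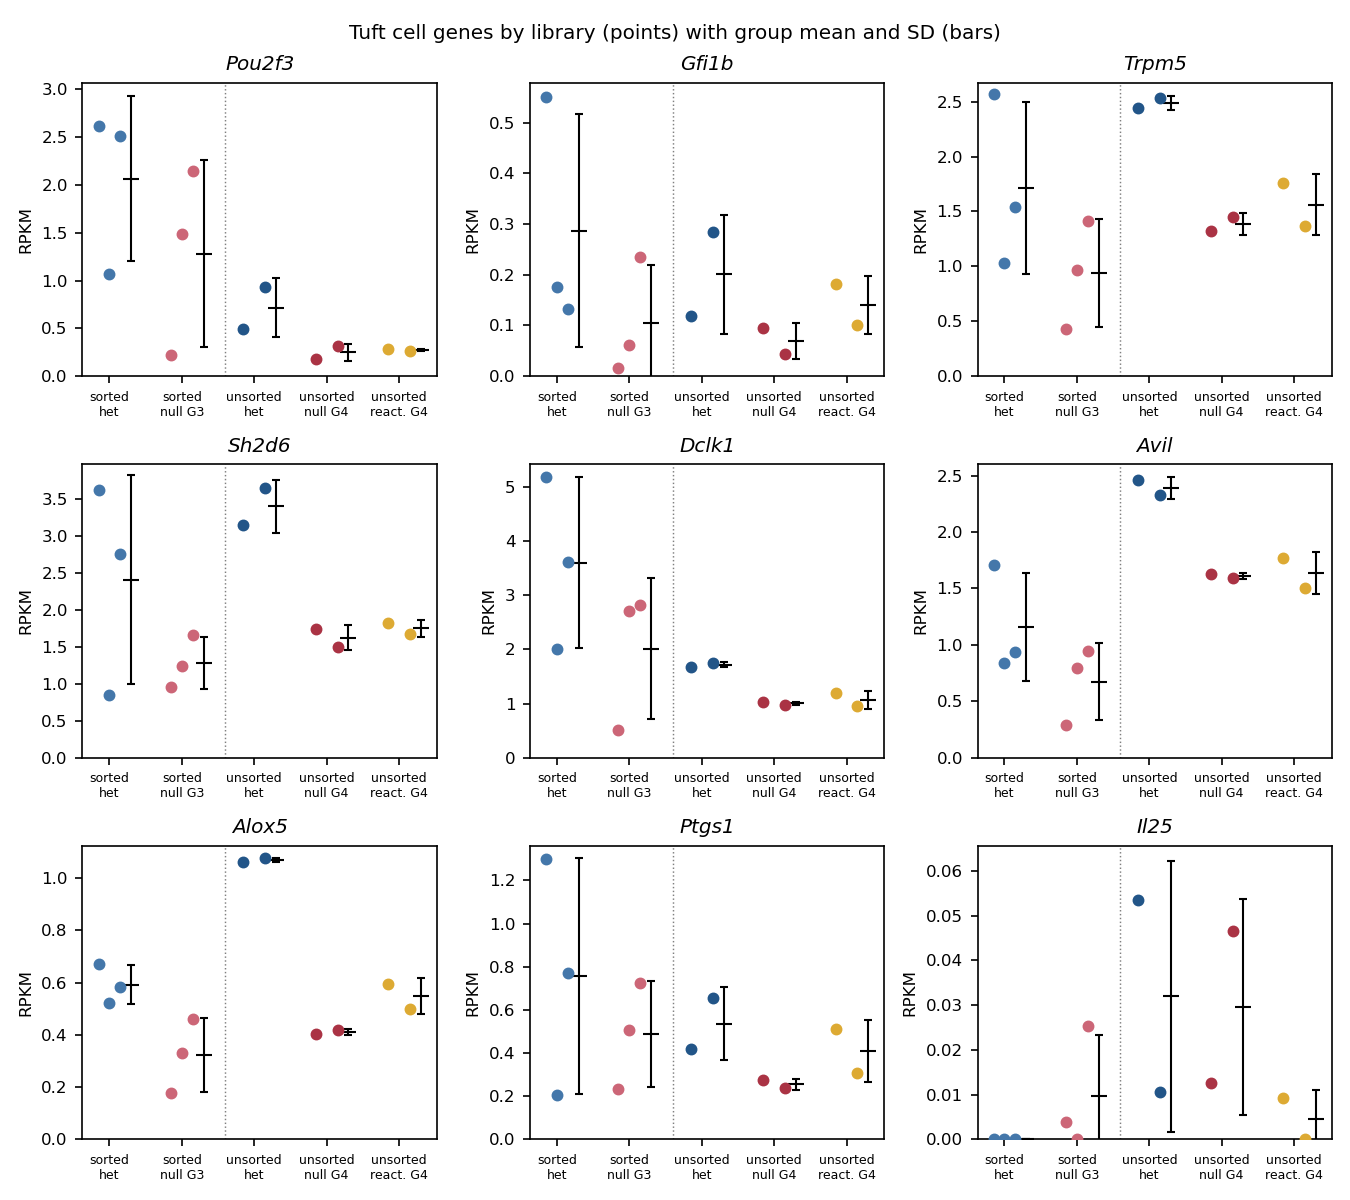
RPKM of the 9 genes, with 1 panel per gene, its own scale from 0, and 1 point per library; horizontal bars are group means and vertical bars the SD, cut off at 0, of 3 sorted or 2 unsorted libraries. The dotted line parts sorted from unsorted libraries. In unsorted crypts the null G4 points lie below the heterozygous points in every panel but that of Il25, while sorted groups overlap in every panel but that of Alox5.

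Pou2f3 (chromosome 9, 43123939 to 43210369), the master regulator of the tuft lineage, was at 0.496 and 0.936 RPKM in unsorted heterozygous libraries. It was at 0.182 and 0.312 RPKM in null G4 and at 0.281 and 0.265 RPKM in the libraries labelled reactivated. All 4 generation 4 libraries lay below both heterozygous ones, and the null G4 mean was 0.345 times the heterozygous mean. Pou2f3 did not reach the level for testing in these libraries. When every gene was tested regardless of level, its log2 difference was -0.45 (SE 0.14, limma adjusted p = 0.181, n = 2 per group). Some 42 to 255 reads lay behind each unsorted value.

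Gfi1b (chromosome 2, 28609450 to 28621982), a zinc finger repressor also used in red cell and platelet precursors, was the lowest of the 9 genes after Il25. Its unsorted values were 0.118 and 0.284 RPKM in the heterozygous pair, 0.0946 and 0.0434 in the null G4 pair and 0.182 and 0.101 in the reactivated pair. The reactivated values overlap the heterozygous ones, and only about 8 to 46 reads lay behind each value. The 8 markers of platelets and red cells summed to 4.62 and 18.6 RPKM in heterozygous libraries, 3.28 and 3.3 in null G4 and 2.59 to 6.15 in reactivated ones. The highest sum was in heterozygous replicate 2, the library with the highest Gfi1b (haemoglobin gene Hbb-bs 13.6 RPKM, against 2.44 in replicate 1). The platelet marker Pf4 had the reverse order, at 0.195 and 0.193 RPKM in the heterozygous pair against 0.819 and 0.679 in the null G4 pair, Gp1ba was at 0.187 to 0.225 in these 4, and Ppbp was at 0 in them. Gp9 also had the reverse order (0 and 0.0279 against 0.0328 and 0.0489). The platelet marker Itga2b had the order of Gfi1b, at 0.111 and 0.106 RPKM in the heterozygous pair against 0.0489 and 0.0748 in the null G4 pair. The part of blood cells in the Gfi1b values was not tested.

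Trpm5 (chromosome 7, 143069153 to 143094642), the calcium-gated cation channel of the taste pathway, was at 2.44 and 2.54 RPKM in unsorted heterozygous libraries. It was at 1.32 and 1.45 RPKM in null G4 and 1.76 and 1.36 in reactivated libraries. The heterozygous pair differed little and stood above the other 4 libraries. The log2 difference of null G4 from heterozygous was -0.55 (SE 0.15, limma adjusted p = 0.0547, n = 2 per group), which missed the threshold. Of its exon bases 3.44% are shared with Tssc4 on the opposite strand, and the strand setting of the counting is not given in the sources used here. Tssc4 was higher in null G4 (7.3 and 8.43 RPKM) than in heterozygous libraries (4.27 and 4.52), opposite to Trpm5.

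Sh2d6 (chromosome 6, 72513641 to 72521707), an SH2-domain adaptor gene known as a tuft cell marker, was the highest of the 9 in unsorted crypts. It was at 3.14 and 3.65 RPKM in the heterozygous pair, 1.74 and 1.5 in the null G4 pair and 1.83 and 1.67 in the reactivated pair. Its mean in null G4, 1.62 ± 0.17 RPKM (SD, n = 2), was 0.477 times that in heterozygous libraries, 3.4 ± 0.362 (SD, n = 2). Sh2d6 fell by 0.75 on the log2 scale (SE 0.145, limma adjusted p = 0.0321, n = 2 per group), with both null libraries below both heterozygous ones. The call was lost without any 1 of the 4 libraries compared: the adjusted p was 0.0746 and 0.0849 without heterozygous replicates 1 and 2, and 0.1 and 0.261 without null G4 replicates 1 and 2. It was also lost with a term for sex (-0.83, limma adjusted p = 0.188) and with no filter on low genes (limma adjusted p = 0.147).

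Dclk1 (chromosome 3, 55242364 to 55539068), a microtubule-associated kinase and the most used tuft cell marker, was at 1.68 and 1.76 RPKM in unsorted heterozygous libraries. It was at 1.02 and 0.981 RPKM in null G4 and 1.19 and 0.946 in reactivated libraries. Replicates of the first 2 groups differed far less than the groups did. Its log2 difference in null G4 was -0.44 (SE 0.15, limma adjusted p = 0.0687, n = 2 per group). Neurons also use Dclk1, and the 7 markers of neurons and glia summed to 0.161 to 0.277 RPKM in the heterozygous pair against 0.253 to 0.327 in the null G4 pair. The part of neurons in the Dclk1 values was not tested.

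Avil (chromosome 10, 127000709 to 127020994) encodes advillin, an actin-bundling protein of the villin family that marks the tuft of apical microvilli. Its unsorted values were 2.46 and 2.33 RPKM in the heterozygous pair, 1.63 and 1.59 in the null G4 pair and 1.77 and 1.51 in the reactivated pair. This was the smallest relative difference of the 8 non-overlapping genes, with a null G4 mean 0.673 times the heterozygous mean and a log2 difference of -0.38 (SE 0.14, limma adjusted p = 0.0816, n = 2 per group). Avil shares 4.86% of its exon bases with Tsfm on the opposite strand. Tsfm was at 3.83 and 3.95 RPKM in the heterozygous pair against 5.59 and 6.63 in the null G4 pair, the reverse order.

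Alox5 (chromosome 6, 116410077 to 116461178) encodes 5-lipoxygenase, which starts leukotriene synthesis. It was at 1.06 and 1.08 RPKM in the unsorted heterozygous pair, 0.405 and 0.421 in the null G4 pair and 0.597 and 0.5 in the reactivated pair. The 3 groups were fully separate, with reactivated values in between. The null G4 mean was 0.386 times the heterozygous mean, and the log2 difference was -0.55 (SE 0.15, limma adjusted p = 0.0567, n = 2 per group). Alox5 entered the test only through its heterozygous libraries, so its presence among the tested genes already required a high value there.

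Ptgs1 (chromosome 2, 36230426 to 36252272) encodes cyclooxygenase 1, the constitutive first enzyme of prostaglandin synthesis. It was at 0.419 and 0.655 RPKM in the unsorted heterozygous pair, 0.274 and 0.238 in the null G4 pair and 0.513 and 0.309 in the reactivated pair. Both null libraries were below the other 4, and reactivated and heterozygous libraries overlapped. Ptgs1 was below the level for testing, and with no filter its log2 difference in null G4 was -0.29 (SE 0.11, limma adjusted p = 0.224, n = 2 per group).

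Leukocytes use both enzymes. The 8 leukocyte markers in the table summed to 3.09 and 6.75 RPKM in the heterozygous pair, 3.86 to 4.65 in the null G4 pair and 2.33 to 4.41 in the reactivated pair, so the null G4 sums lay between the heterozygous ones. Of the mast cell and basophil markers, Ms4a2 was at 0 in all 6 unsorted libraries, and the 7 with values summed to 0.614 and 1.32 RPKM in heterozygous and 0.526 to 0.544 in null G4. Their part in the Alox5 and Ptgs1 values was not tested.

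Il25 (chromosome 14, 54932695 to 54935837), the tuft cell cytokine, was close to the limit of detection everywhere. It was at 0.0534 and 0.0106 RPKM in the unsorted heterozygous pair, 0.0125 and 0.0466 in the null G4 pair and 0.00917 and 0 in the reactivated pair, or about 0 to 5 reads. In sorted cells it was listed at 0 in all 3 heterozygous libraries and at 0.00381, 0 and 0.0253 RPKM in null G3. No difference in Il25 was detectable at this depth.

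Within unsorted libraries the order by mean level per length was Sh2d6, Avil, Trpm5, Dclk1, Alox5, Pou2f3, Ptgs1, Gfi1b and Il25, from 2.25 to 0.0221 RPKM. The ranges of all libraries overlapped between each neighbouring pair in that order.

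Telomerase reactivation was compared next. Leaving out Il25, which rests on 0 to 5 reads a library, the libraries labelled reactivated lay below both heterozygous libraries for 6 of the other 8 genes, against 10.9% of all genes with a value, with Gfi1b and Ptgs1 overlapping. None of the 5 tested genes passed against heterozygous libraries (0 of 5, with 0.148% of all genes called lower). All 5 had an unadjusted limma p between 0.00137 and 0.03, beside 1615 of all 11464 genes tested with one under 0.05, in either direction. Sh2d6 came nearest, with a log2 difference of -0.68 (SE 0.145, limma adjusted p = 0.0834, n = 2 per group), which passed when reactivated replicate 2 was left out (-0.64, limma adjusted p = 0.04). The other 4 had log2 differences of -0.45 for Trpm5, -0.42 for Alox5, -0.40 for Dclk1 and -0.37 for Avil (limma adjusted p = 0.267 to 0.319), with a median over all genes of 0.22.

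Against null G4 the same libraries gave small differences. The log2 differences were 0.13 for Alox5, 0.10 for Trpm5, 0.07 for Sh2d6, 0.04 for Dclk1 and 0.01 for Avil (SE 0.14 to 0.152, limma adjusted p = 0.833 to 0.977, n = 2 per group). Of the 5, 0 passed (0.0262% of all genes, in either direction) and 0 had an unadjusted limma p under 0.05, beside 310 of all 11464 genes tested. Gfi1b, Alox5 and Ptgs1 lay above both null G4 libraries, 3 of the 8 genes other than Il25 against 7.73% of all genes, and 0 of the 8 lay below them, against 20.8%. The SEs leave room for differences of either sign, so these values do not show that the groups are alike. The 3 comparisons of unsorted groups share libraries, and their values are not independent of one another.

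**Figure D2:**
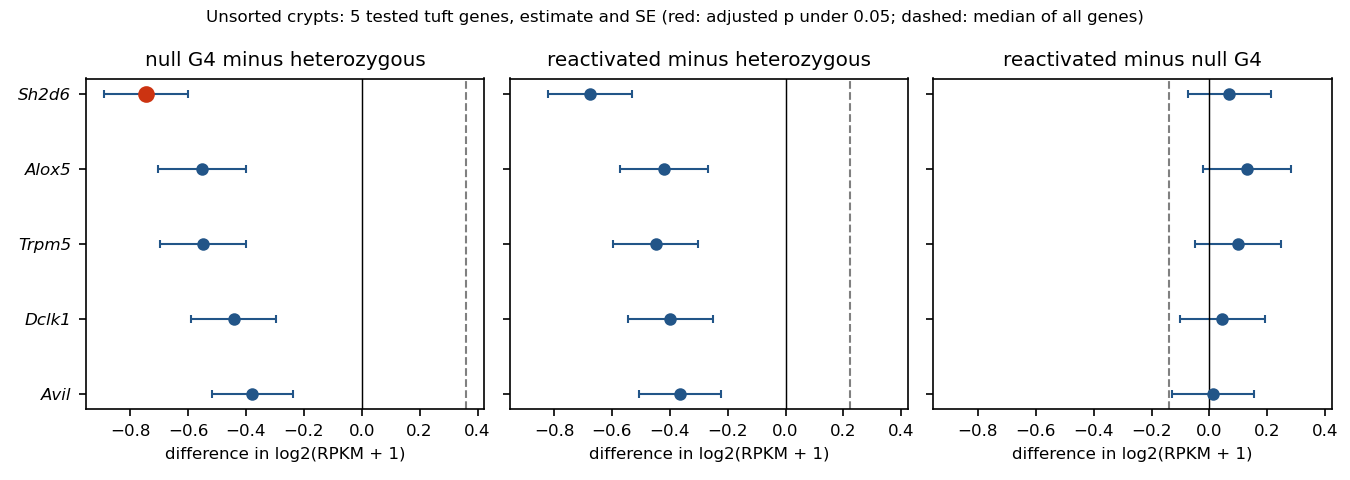
Differences in log2(RPKM + 1) of the 5 tested genes between unsorted groups, with points for the limma estimate and bars for 1 SE (2 libraries per group). Sh2d6 in red, at -0.75 in null G4 against heterozygous, was the only estimate with an adjusted p under 0.05. Estimates against heterozygous libraries lie left of the dashed median of all genes, and those of reactivated against null G4 lie near 0.

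Reactivated replicate 2 expressed Y-linked genes at the level of the heterozygous libraries, which allows a comparison within one sex. It lay below both heterozygous libraries for 8 of the 8 genes other than Il25, against 29.5% of all genes with a value. For Sh2d6 its value was 1.67 RPKM against 3.14 and 3.65, and for Dclk1 0.946 against 1.68 and 1.76. With 1 library this comparison has no test. Reactivated replicate 2 was also below both heterozygous libraries for the goblet cell markers Muc2 (1692 RPKM against 2210 and 2150), Spdef (32.5 against 52 and 43.2), Agr2 and Fcgbp. It was above both for Zg16 and Clca1 and between them for Tff3. Its low values are thus not particular to tuft cell genes. A fit with a term for sex, which the differing sex of the reactivated libraries makes possible, gave log2 differences of -0.83 for Sh2d6 and -0.77 for Trpm5 in null G4 against heterozygous, with 0 of 5 genes passing (limma adjusted p = 0.188 and 0.167). The sex term rests only on reactivated replicate 2 against replicate 1, 1 library each. Any other difference between these libraries is counted as sex, so the fit cannot part sex from genotype.

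The direction was kept under the 2 other scalings tried. In null G4 against heterozygous 4 of the 5 genes passed after quantile normalization and 5 of 5 after scaling each library to a common median. Of all genes 570 were called higher and 66 lower in the values as deposited, 135 and 102 after quantile normalization, and 147 and 175 after median scaling. Mitochondrial ribosomal RNA made up 19.2% and 27.3% of summed RPKM in the heterozygous pair, 12% and 11.9% in the null G4 pair, and its part in the shift of all genes was not tested.

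**Figure D3:**
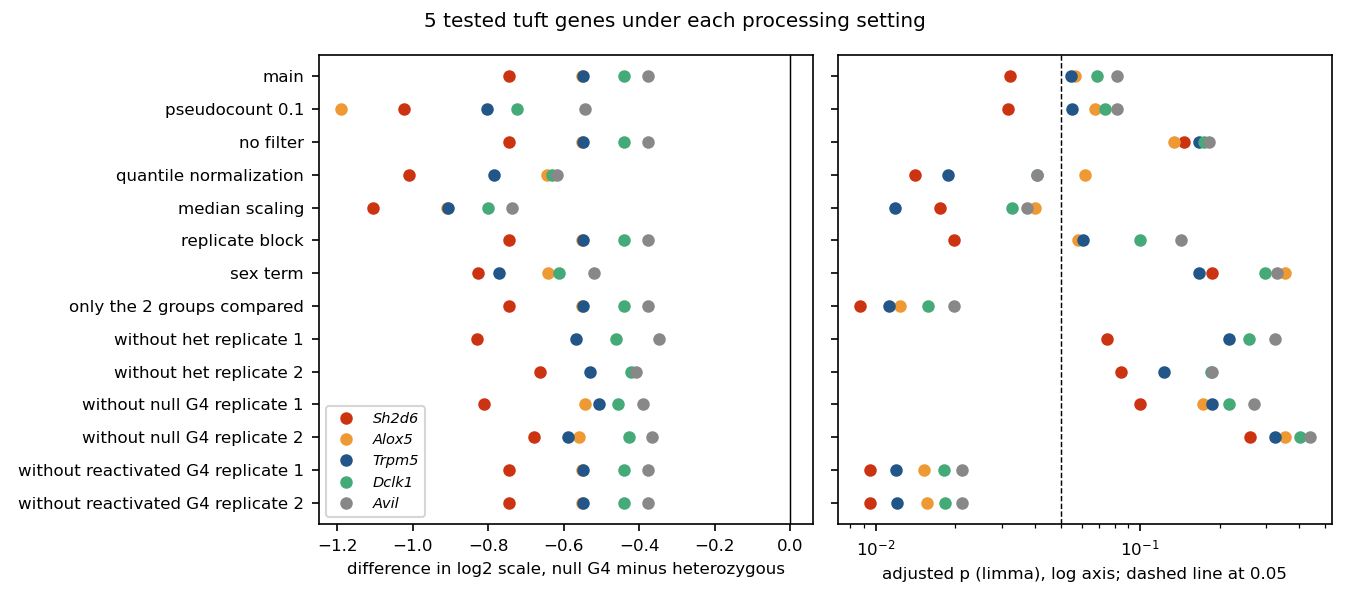
Null G4 against heterozygous unsorted crypts under each processing setting for the 5 tested genes: log2 difference on the left, limma adjusted p on a log axis on the right, 2 libraries per group unless 1 is left out. Every estimate is below 0, though only the 2 scalings and the sex term could have turned a sign. The number of genes with an adjusted p under 0.05 (dashed line) runs from 0 to 5. Where a gene has no point it did not reach the level for testing.

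Tuft cell genes were also measurable in the sorted cells, although the sort was for crypt base columnar cells. Sorted heterozygous libraries had Pou2f3 at 2.62, 1.07 and 2.52 RPKM, Dclk1 at 5.18, 2.01 and 3.62, and Trpm5 at 2.57, 1.03 and 1.54. Libraries labelled null G3 had Pou2f3 at 0.221, 1.48 and 2.14 RPKM, Dclk1 at 0.507, 2.71 and 2.82, and Trpm5 at 0.432, 0.969 and 1.42. Sh2d6 was at 3.62, 0.85 and 2.75 RPKM in the heterozygous libraries against 0.954, 1.25 and 1.65 in null G3. Heterozygous replicate 2 was low and null G3 replicate 1 the lowest or near it for each, and the groups overlapped for all 4.

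Avil, at 0.836 to 1.71 RPKM in sorted heterozygous and 0.292 to 0.942 in null G3, Ptgs1 (0.207 to 1.3 and 0.231 to 0.724) and Gfi1b (0.133 to 0.551 and 0.0152 to 0.235) overlapped as well. Alox5 was at 0.67, 0.521 and 0.585 RPKM in the heterozygous libraries against 0.179, 0.332 and 0.461 in null G3. It was the 1 gene of 9 whose groups did not overlap, against 8.32% of all genes with a value. Leukocyte markers summed to 2.69 to 5.58 RPKM in the same heterozygous libraries and to 1.23 to 2.24 in null G3, and their part in it was not tested.

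None of the 4 genes tested passed (0 of 4, with 0% of all 8734 genes called and 143 at an unadjusted p under 0.05, none of them among the 4). The log2 differences of null G3 from heterozygous were -0.67 for Dclk1 (SE 0.448), -0.49 for Pou2f3 (SE 0.403), -0.49 for Sh2d6 (SE 0.374) and -0.48 for Trpm5 (SE 0.315), each with a limma adjusted p of 0.481 (n = 3 per group). The median over all genes was -0.46, and after scaling to a common median Pou2f3 was at 0.0156, Sh2d6 at 0.0172 and Trpm5 at 0.0245. Without null G3 replicate 1 the differences were -0.23 for Dclk1, -0.09 for Pou2f3, -0.38 for Sh2d6 and -0.28 for Trpm5 (limma adjusted p = 0.868 to 0.926). Mitochondrial ribosomal RNA made up 71.9%, 64.4% and 46.8% of summed RPKM in null G3 replicates 1, 2 and 3. In the sorted heterozygous libraries it made up 41.4%, 38.7% and 53.6%, and its part in the shift of all genes was not tested. No change of these genes in sorted null G3 cells was detectable.

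The members did not keep the same proportions in sorted and unsorted libraries. The 2 sets list different genes and appear to have been normalized apart, so levels are set side by side without a test, and ratios to Trpm5 within a library, which do not depend on the library total, are given beside them. In heterozygous mice Pou2f3 averaged 2.07 RPKM in sorted and 0.716 in unsorted libraries, and Dclk1 3.6 and 1.72, with every sorted library above every unsorted one. Avil averaged 1.16 RPKM in sorted and 2.39 in unsorted libraries, and Alox5 0.592 and 1.07, with every sorted library lower. Il25 averaged 0 and 0.032, also lower in every sorted library, but only about 5 and 1 reads lay behind its unsorted values. Trpm5, Sh2d6, Gfi1b and Ptgs1 overlapped. The share of all genes that separate the sorted from the unsorted libraries in this way was not counted. Mitochondrial ribosomal RNA made up 41.4%, 38.7% and 53.6% of summed RPKM in the sorted heterozygous libraries. In the unsorted heterozygous pair it made up 19.2% and 27.3%, and its part in these levels was not tested.

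Per unit of Trpm5, Pou2f3 ran from 0.512 to 1.63 (median 1.27) in the 6 sorted libraries and from 0.138 to 0.369 (median 0.199) in the 6 unsorted ones. Dclk1 ran from 1.17 to 2.8 (median 2.01) in sorted and from 0.675 to 0.777 (median 0.691) in unsorted libraries. Avil went the other way, from 0.607 to 0.817 in sorted and 0.917 to 1.24 in unsorted libraries. The ranges of the other 5 ratios overlapped, those of Sh2d6 at medians of 1.35 and 1.25. Ptgs1 had medians of 0.509 in sorted and 0.217 in unsorted libraries, and its ranges overlapped only through sorted heterozygous replicate 2 (0.2, against an unsorted maximum of 0.291). The share of all genes whose ratio to Trpm5 separates the 2 sets was not counted. The unsorted Dclk1 ratio was nearly constant although both genes had lower values in null G4. Sorted and unsorted libraries differ in cell preparation and depth as well, and the part of these was not tested.

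**Figure D4:**
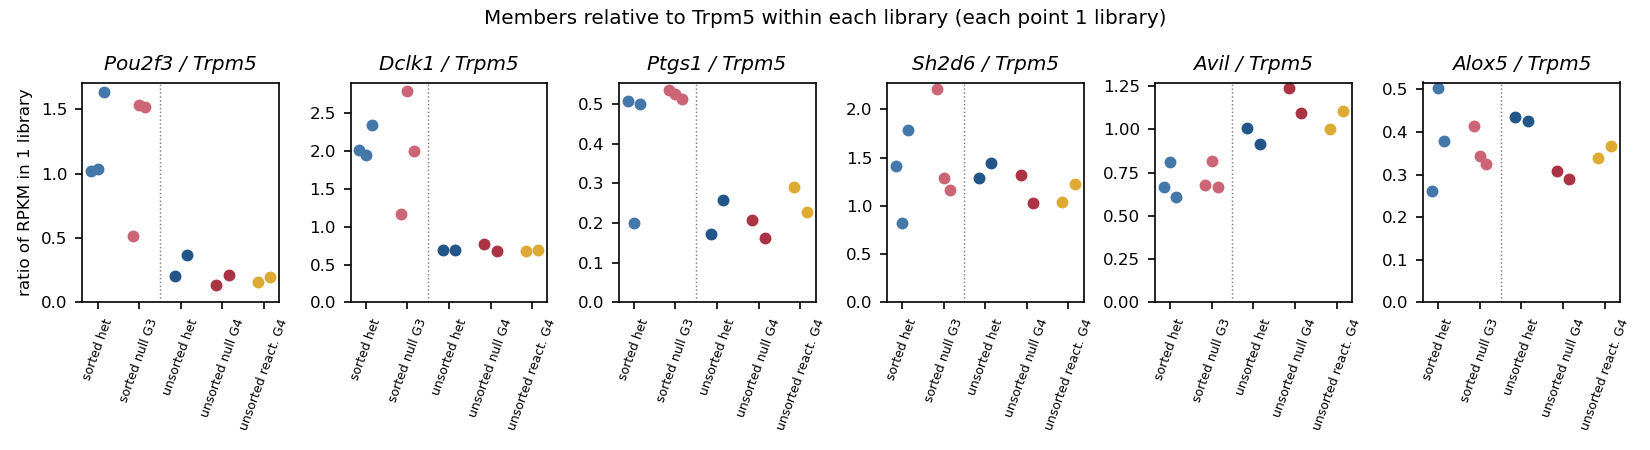
RPKM of 6 genes divided by that of Trpm5 in the same library, with 1 point per library; each panel starts at 0 and the dotted line parts sorted from unsorted libraries. Pou2f3 and Dclk1 ratios are above the unsorted ones in all 6 sorted libraries, Avil ratios below, and the Sh2d6 and Alox5 ratios overlap. Ptgs1 ratios overlap only through sorted heterozygous replicate 2. Gfi1b and Il25 ratios are not drawn because few reads lie behind them.

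The genes whose profile over the 12 libraries was most like that of Trpm5 were Greb1, 1700001L05Rik, Pik3cg, Avil and Rnf32. Likeness was the root mean square difference between log2(RPKM + 1) profiles, each centred on its mean, and it was 0.145 for Greb1, 0.16 for 1700001L05Rik, 0.175 for Pik3cg, 0.182 for Avil and 0.187 for Rnf32, among 10935 genes ranked. Only genes listed for all 12 libraries with a mean of 1 RPKM or more over the unsorted ones were ranked. Alox5, Pou2f3, Ptgs1, Gfi1b and Il25 fell below that mean and have no rank. Sh2d6 ranked 8 (0.19) and Dclk1 4825 (0.517), the latter with its higher level in sorted libraries. This ranking is a description over libraries of both sets and has no test.

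Further genes came from 5 lists, 4 of tuft cell genes and 1 of the IL-25 and type 2 response, which other cells carry out, holding 69 distinct genes, of which 64 are in the table and 32 could be tested in unsorted crypts. In null G4 against heterozygous 1 of the 32 fell, against 0.576% of all genes tested, and 3 rose, against 4.97%, and their median log2 difference was 0.10 against 0.36 for all genes. In each of the other comparisons 0 passed: 0 of 32 for the reactivated libraries against either group, and 0 of 30 in sorted cells, where the median was -0.51 against -0.46 for all genes.

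The gene that fell was Sh2d7, an adaptor gene related to Sh2d6 in its SH2 domain. It was at 2.97 and 3.23 RPKM in the heterozygous pair, 1.27 and 1.33 in the null G4 pair and 1.93 and 1.52 in the reactivated pair. All 4 generation 4 libraries were below the heterozygous ones, and the null G4 difference was -0.83 on the log2 scale (SE 0.146, limma adjusted p = 0.0228, n = 2 per group). With no filter on low genes the difference kept this value but lost the call (limma adjusted p = 0.136). With a term for sex it was -1.05 (limma adjusted p = 0.0669), and the call was lost without any 1 of the 4 libraries compared (limma adjusted p = 0.0646 and 0.0678 without heterozygous replicates 1 and 2, 0.101 and 0.134 without null G4 replicates 1 and 2).

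The 3 that rose are broadly expressed and not restricted to tuft cells. Plac8 rose from 52.9 and 98.3 RPKM in heterozygous to 192.4 and 217.7 in null G4 libraries, the adaptor gene Skap2 from 9.91 and 11.3 to 19.8 and 24, and the interleukin 4 receptor gene Il4ra from 3.1 and 3.74 to 6.31 and 7.15 (limma adjusted p = 0.0415, 0.0322 and 0.0466). All 3 calls were lost under quantile normalization, median scaling, no filter (limma adjusted p = 0.116 to 0.165) and a term for sex, with which Plac8 was at 1.75, Skap2 at 0.88 and Il4ra at 0.38 (limma adjusted p = 0.361, 0.336 and 0.618). Without any 1 of the 4 libraries compared Skap2 (limma adjusted p = 0.0583 to 0.271) and Il4ra (0.0672 to 0.286) lost the call, and so did Plac8 (0.0756 to 0.17) except without heterozygous replicate 2 (0.00965).

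By list, the transcription factors and co-factors had 0 of 4 called, with Spib lowest at -0.64 (SE 0.158, limma adjusted p = 0.0507): it was at 1.43 and 1.67 RPKM in the heterozygous pair against 0.566 and 0.716 in the null G4 pair. Apart from the heterozygous pair, Spib reached the level for testing only in reactivated replicate 1 (1.24 RPKM). Its place among the tested genes thus required a high heterozygous value. Sox9 (11.4 and 8.46 against 9.49 and 9.49 RPKM), Nrep and Runx1 had log2 differences between -0.07 and -0.01. Taste-type signalling had 0 of 7 called. Atp2a3, Trpm4 and Itpr3, the most abundant of that list, and Plcg2 had log2 differences of 0.29, -0.14, 0.52 and -0.04. Eicosanoid synthesis had 0 of 4 called, and Alox5ap, the 5-lipoxygenase activating protein, was at 1.51 and 1.17 RPKM in the heterozygous pair against 0.642 and 0.713 in the null G4 pair (-0.48, limma adjusted p = 0.0697). Like Alox5, it reached the level for testing in the heterozygous libraries only, so its place among the tested genes required a high value there. In the same list Lta4h had 0.70, Pla2g4a 0.51 and Hpgds -0.07, estimates of both signs.

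The kinase, adaptor and surface list had 2 called higher and 1 lower of 11, beside 4.97% higher and 0.576% lower of all genes. Cd24a and Hepacam2, which other crypt cells also express, had log2 differences of 0.24 and 0.16. The IL-25 and type 2 response list had 1 called higher of 6, beside 4.97% of all genes, and Retnlb, a goblet cell product induced by type 2 cytokines, was at 343.2 and 282.6 RPKM in the heterozygous pair against 318.4 and 306.5 in the null G4 pair.

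Markers of the other secretory cells were counted beside these. In null G4 against heterozygous unsorted crypts, 0 of 6 tested enteroendocrine markers passed, with a median log2 difference of 0.25, and their summed level was 55.4 and 69.5 RPKM in the heterozygous pair against 79.3 to 93.8 in the null G4 pair. Of 7 goblet cell markers Fcgbp, a mucus protein gene, was called lower (-1.17, limma adjusted p = 0.0398) and 0 higher, with a median of 0.19. General epithelial markers, which all 12 libraries held, summed to 1495 and 1941 RPKM in the heterozygous pair against 2522 to 3125 in the null G4 pair (0 of 6 called). Of all genes tested in this comparison 0.576% were called lower and 4.97% higher, with a median log2 difference of 0.36. The enteroendocrine and goblet cell medians lie below that median. Whether the tuft cell genes differ from these lists was not tested.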

How the data were processed

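RNA was extracted with the Qiagen RNeasy Mini kit and made into TruSeq RNA libraries, per the labels' protocols. STAR 2.3.0e and mm10 appear, without a role, per the submitters' processing notes. The sources used here do not give the annotation, counting tool or strandedness. Values deposited by the authors are RPKM for 28793 genes in 12 columns, and all were used. Of low unsorted values (up to 5 reads), 81.1% to 82.8% came out whole to within 0.05 reads, which gave the implied depths. In sorted libraries 29.5% to 83.9% were whole.

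Sorted and unsorted libraries were fitted apart with limma 3.58.1 (R 4.3.3; two-sided, moderated with a trend on mean level) on log2(RPKM + 1), which understates changes of low genes. All groups within a fit shared a common estimate of the spread, so reactivated libraries also entered the p-values of null G4 against heterozygous. Tested genes had 1 RPKM or more in 3 sorted or 2 unsorted libraries, with Benjamini-Hochberg adjustment over all of them. Each fit was tested on simulated data. The smallest two-sided exact permutation p is 0.1 for 3 against 3 libraries and 0.333 for 2 against 2. The rest was done in Python 3.11.15 (matplotlib 3.10.9, numpy 2.4.6, pandas 2.3.3). Coordinates are from GENCODE release M21 (GRCm38, which is mm10), in which 98% of the identifiers were found, and promoter windows from RefSeq.

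The members, pathway lists and marker lists were chosen with earlier results of these data known. The 9 members, Tert, the 4 most abundant members of each pathway list in unsorted libraries, any list member that passed and the 5 genes most like Trpm5 were to be named. Fcgbp, Rbp2, Hbb-bs, Pf4, Gp1ba, Gp9, Itga2b, Tssc4 and Tsfm were added after their values were seen. The alternatives were another pseudocount, no filter, 2 scalings, the replicate number as a block, a sex term, fits of 2 groups and leaving out each library.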

Additional observations from a re-analysis of the deposited data

How the results depend on the processing

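For null G4 against heterozygous crypts, where 1 gene passed, 0 passed with no filter, 4 after quantile normalization (Sh2d6, Trpm5, Dclk1 and Avil), 5 after median scaling, 0 with a sex term, and 5 when only the 2 groups compared were fitted. Leaving out each library gave 0 to 5. In all of these the estimates of the tested members stayed below 0. With no filter, a replicate block, only the 2 groups compared or a reactivated library left out, the estimate is the main one by construction. Leaving out a heterozygous or null G4 library could not turn the sign, since both null G4 values lay below both heterozygous ones. Only the 2 scalings and the sex term could have turned it. For reactivated against heterozygous, where 0 passed, 1 passed after quantile normalization (Sh2d6, -0.85) and 2 after median scaling (Sh2d6, -0.89, and Trpm5, -0.66), and leaving out each library gave 0 to 1. A pseudocount of 0.1 changed no count of members called. For null G4 against heterozygous crypts the main fit takes its spread from all unsorted groups. Fits of 2 groups or without a reactivated library take it from fewer libraries, which changes the p-values and not the estimates. The cause of the other changes was not tested. For the fits of 2 groups and those without 1 library the share of all genes called was not counted, so their member counts have no background beside them. In sorted cells 3 estimates changed sign after median scaling, to 0.0156 for Pou2f3, 0.0172 for Sh2d6 and 0.0245 for Trpm5. Estimates of reactivated against null G4 that changed sign without reactivated replicate 1 ran over the leave-one-out fits from -0.0584 to 0.0843 for Avil, -0.0413 to 0.129 for Dclk1 and -0.0123 to 0.212 for Trpm5. A group left with 1 library is assumed to vary like the others.

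Replicate numbers shared by the labels were not taken to pair the libraries. In sorted cells same-numbered libraries had correlations of deviations of 0.05, -0.03 and -0.19, and other-numbered ones ran from -0.11 to 0.21. Between pairs of unsorted groups the same-numbered values were 0.22, -0.07 and -0.12. With 2 libraries per group each of these is the negative of the other-numbered value by construction, so they cannot decide whether the libraries are paired. With a replicate block 1 member passed in null G4 against heterozygous crypts (Sh2d6, limma adjusted p = 0.0198) and 0 in each other comparison. Over all genes, the calls in null G4 against heterozygous crypts were 570 higher and 66 lower, and 1160 and 157 with the replicate block, 59 and 10 with the sex term, 16 and 5 with no filter, 135 and 102 after quantile normalization and 147 and 175 after median scaling. In reactivated against heterozygous they were 129 and 17, and 211 and 53 with the replicate block, 65 and 23 after quantile normalization, 71 and 23 after median scaling, and 18 and 4 with no filter. In reactivated against null G4 they were 2 and 1, and 4 and 5 with the replicate block, 2 and 4 with the sex term, 2 and 0 after median scaling, and 0 and 0 after quantile normalization or with no filter. Depth limits Il25 and Gfi1b most, with at most 5 and 46 reads per unsorted library.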
